A study of Mus musculus with 10 samples.

Results

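The genes described here encode proteins that recognise or remove N6-methyladenosine (m6A), the commonest internal modification of messenger RNA. They are the 5 YTH readers Ythdc1, Ythdc2, Ythdf1, Ythdf2 and Ythdf3, the 2 demethylases Alkbh5 and Fto, and 3 RNA-binding proteins proposed as readers, Igf2bp1, Hnrnpa2b1 and Hnrnpc. They were chosen by name, and a peak was counted for a gene when its midpoint lay in the gene's RefSeq span. All 10 were found among the 21887 protein-coding genes of the table, and their spans held 68 peaks out of 50124 in 3 deposited lists.

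The lists came from male mouse embryonic stem cells derived from the inner cell mass of 129 mouse embryos and grown without feeder cells in serum and LIF. For m6A there were 2 immunoprecipitates and 2 inputs from Mettl3 knockout (KO) cells and the same numbers from Mettl3 wild-type (WT) cells, all labelled as polyA RNA. METTL3 is the catalytic subunit of the enzyme complex that writes m6A. For YTHDC1 there were 1 pull-down (RNA immunoprecipitation, RIP) and 1 input, labelled as total RNA, from cells with a Halo-Ythdc1 knockin, in which a Halo tag lets beads capture the protein. The lists held 6764 KO m6A peaks, 12368 WT m6A peaks and 30992 RIP peaks, on mm10, and coordinates below are counted from 1. They give a position for each peak and no height, read depth, strand or value per sample. How far replicates differ is thus unknown, and no difference between genotypes below could be tested. Presence or absence in a list is not an amount. The label of 1 of the 2 KO immunoprecipitates names the WT list, the KO list is named by the other alone, and the cell type label of the KO samples reads wild type, so which samples stand behind each m6A list is not settled. The labels do not say whether the samples of a genotype are separate cultures or clones. Mettl3 itself held no peak in any list and does not check the genotypes. As a check of the cell type, 7 of 8 embryonic stem cell marker genes had a peak in at least 1 list, against 2 of 8 fibroblast markers (Thy1 with 1 KO peak and Fbn1 with 1 RIP peak). Of all protein-coding genes, 41.6% had a RIP peak, and the share with a peak in at least 1 list was not counted.

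The YTH domain is a pocket that holds the methylated adenine. YTHDC1 is the nuclear reader and acts in splicing, RNA export and the silencing of retrotransposon RNA, and in embryonic stem cells it is needed for that silencing. YTHDF1, YTHDF2 and YTHDF3 are cytoplasmic proteins that bear on the translation and decay of methylated RNA, and YTHDC2 is a helicase known above all from germ cells. ALKBH5 and FTO remove the methyl group, FTO also from the modified adenosine next to the cap. IGF2BP1 stabilises bound messenger RNAs, HNRNPA2B1 acts in splicing and microRNA processing, and HNRNPC packages nascent transcripts. The data describe peaks in the spans of these genes and say nothing about their proteins. Because the lists give no strand, a peak in a span is not shown to lie on that gene's own RNA.

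KO m6A peaks were found in 9 of the 10 genes, WT m6A peaks in 7 and RIP peaks in 9. Counting only peaks wider than the median of their list turned the order of the genotypes, with KO peaks in 3 genes, WT peaks in 5 and RIP peaks in 7. Of all protein-coding genes, 17.7% had a KO peak, 29.5% a WT peak and 41.6% a RIP peak, and this background counts every gene, whatever its level in these cells. Among the protein-coding genes with a RIP peak, 33% had a KO peak and 52.4% a WT peak. Both m6A lists and the RIP list marked 7 of the 10 genes, against 8.86% of protein-coding genes. Ythdc2 had no peak in any list. Hnrnpa2b1 and Hnrnpc had KO and no WT peaks, a pattern of 6.63% of protein-coding genes, and none of the 10 had WT peaks alone, the pattern of 18.4%. The remaining 7 had peaks in both m6A lists, as did 11.1% of protein-coding genes. By number, the genes held 18 KO peaks, 19 WT peaks and 31 RIP peaks.

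**Figure D1:**
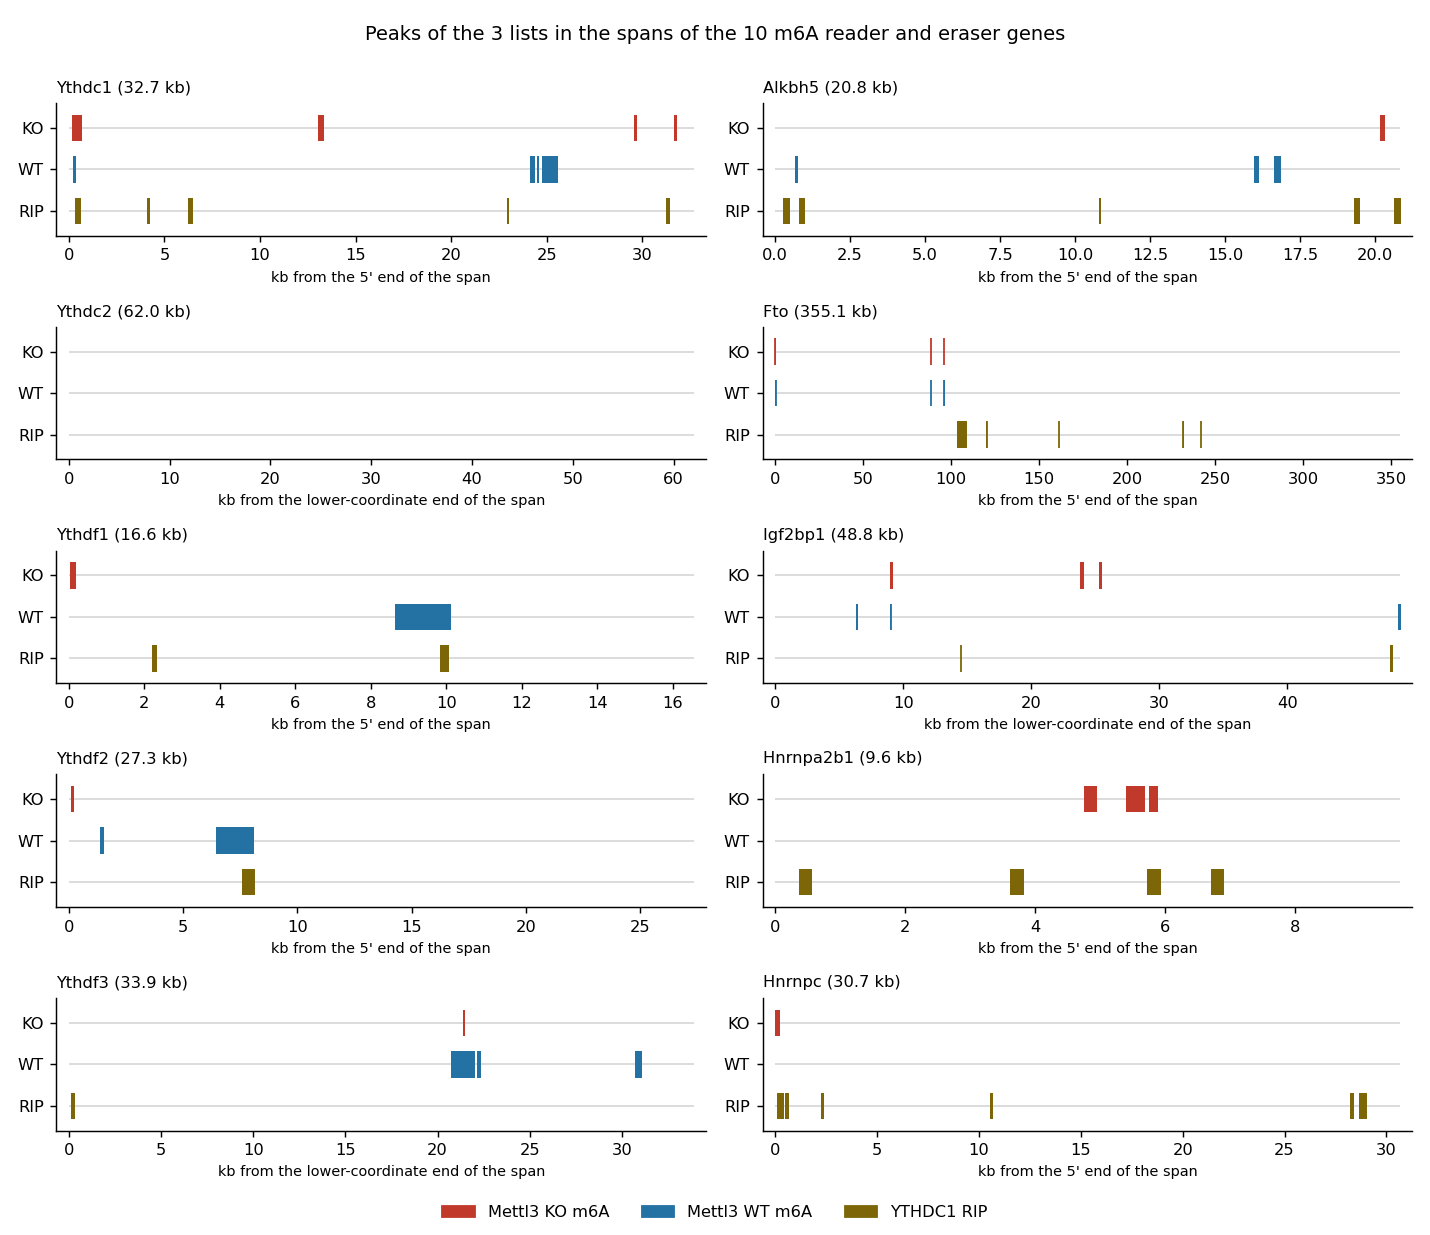
Peaks with their midpoint in the span of each gene, one panel a gene; the x axis is the distance in kb from the 5' end of the span, or from its lower coordinate where the strand was not available. Bars are drawn to scale with a line at the midpoint, red for Mettl3 KO m6A, blue for Mettl3 WT m6A and brown for YTHDC1 RIP; Ythdc2 is empty, and Hnrnpa2b1 and Hnrnpc have no blue bar.

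Ythdc1 had peaks in the pull-down of its own protein. Its span (chromosome 5, 86803980 to 86836659, plus strand, 32680 bp) held 5 RIP peaks of 150 to 278 bp. At least 5 RIP peaks were found in 4.63% of all protein-coding genes, and in 6.24% of the 2229 whose span was within 20% of the length of Ythdc1. The first RIP peak (86804317 to 86804594) began 51 bp past the annotated transcription start. A pair followed 12.7% and 19.5% along the span, at 86808045 to 86808235 and at 86810224 to 86810474. The last 2 (86826875 to 86827024 and 86835208 to 86835407) lay 70.3% and 95.9% of the way to the 3' end. The knockin gene is the source of the captured protein in these cells, and no comparison with cells lacking the tag was analysed here, so whether the tagged transcript contributes to these peaks was not tested.

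The m6A peaks of Ythdc1 numbered 4 in the KO list and 4 in the WT list. As many were held by 1.01% of protein-coding genes in the KO list and 2.49% in the WT list. They covered 1100 bp in KO cells and 1350 bp in WT cells. The lists met only at the 5' end, where the 500 bp KO peak (86804151 to 86804650) contained the whole 150 bp WT peak (86804201 to 86804350). The first RIP peak lay wholly inside that KO peak, overlapping it by 278 bp, and overlapped the WT peak by 34 bp. Elsewhere the lists parted. The other 3 KO peaks were a 300 bp peak 40.3% along the span (86817001 to 86817300) and 150 bp peaks at 90.7% and 97.1%. The other 3 WT peaks formed a cluster between 86828101 and 86829550, of 250, 100 and 850 bp, 74.2% to 76.9% along the span. No KO peak came closer than 4000 bp to this cluster. Its nearest RIP peak ended 1076 bp upstream of its first peak. The KO peak nearest the 3' end was 243 bp from the last RIP peak and did not touch it.

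In 3 of the 7 genes with an annotated start available, the start itself lay in a KO m6A peak. The share of all protein-coding genes with such a start was not counted. The sequences around those 3 starts are shown because the KO peak crosses them. Each runs 5' to 3' from 70 bases before the annotated start to its base 30, from RefSeq on GRCm38.p6, with the bases inside the KO peak in capitals. They are Ythdc1 (chr5:86804196-86804295, plus strand), Fto (chr8:91313455-91313554, plus strand) and Hnrnpc (chr14:52103992-52104091, minus strand).
Ythdc1: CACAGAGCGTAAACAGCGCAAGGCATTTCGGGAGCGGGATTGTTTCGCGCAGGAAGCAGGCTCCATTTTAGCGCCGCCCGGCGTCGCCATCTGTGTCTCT
Fto: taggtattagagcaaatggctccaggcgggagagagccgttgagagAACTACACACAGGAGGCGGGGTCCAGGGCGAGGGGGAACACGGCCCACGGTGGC
Hnrnpc: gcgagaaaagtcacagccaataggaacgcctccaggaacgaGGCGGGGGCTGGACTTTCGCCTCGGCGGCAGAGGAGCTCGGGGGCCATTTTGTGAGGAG
The whole Ythdc1 stretch was inside the KO peak, with 59 bases of the Hnrnpc stretch and 54 of the Fto stretch. The WT peak of Ythdc1 also covered its start, whereas the WT peak of Fto began 26 bp downstream and Hnrnpc had no WT peak. The spans of Ythdc1 and Fto begin before the stretches shown, so the bases ahead of their starts lie within the annotated spans. The span of Hnrnpc also begins before its start, and only part of the bases shown ahead of that start lie within it.

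Near an annotated start, KO peaks were found in 5 of the 7 genes whose strand was available (Ythdc1, Ythdf1, Ythdf2, Fto and Hnrnpc). Their midpoints lay 134, 110, 155, 75 and 95 bp downstream of the start. WT peaks were that close in Ythdc1 (9 bp) and Fto (100 bp) only. How many of all protein-coding genes held a KO or WT peak that close was not counted, so the shares below are of peaks. As a share, 5 of 14 KO peaks (35.7%, exact 95% binomial interval 12.8 to 64.9%) and 2 of 13 WT peaks (15.4%, 1.92 to 45.4%) had their midpoint within 200 bp of a start. Across all protein-coding genes of known strand the shares were 37.6% of KO peaks and 4.44% of WT peaks. The distance to a start was a measure chosen after seeing the data, and at 200 bp the KO share was near the background. Within 100 bp the shares were 2 of 14 KO peaks (14.3%) and 1 of 13 WT peaks (7.69%), against 20.2% and 2.49%. Of 28 RIP peaks 1 (3.57%) had its midpoint within 200 bp of a start, against 7.01%. Measured from the 5' end of the gene span in place of the annotated start, 3 of 14 KO peaks (21.4%) and none of 13 WT peaks lay within 200 bp, against 28.8% and 3.15%. Within 200 bp of either span end, a count that needs no strand, were 3 of 18 KO peaks (16.7%) and 1 of 19 WT peaks (5.26%), against 29.4% and 4.53% in all protein-coding genes. Within 500 bp of the 3' end of the span lay none of the 14 KO peaks (interval up to 23.2%) and none of the 13 WT peaks (up to 24.7%), against 1.82% and 10.4% across all such genes. The last RIP peak of Alkbh5 was the only one of 28 (3.57%) within that distance, against 4.06%.

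**Figure D2:**
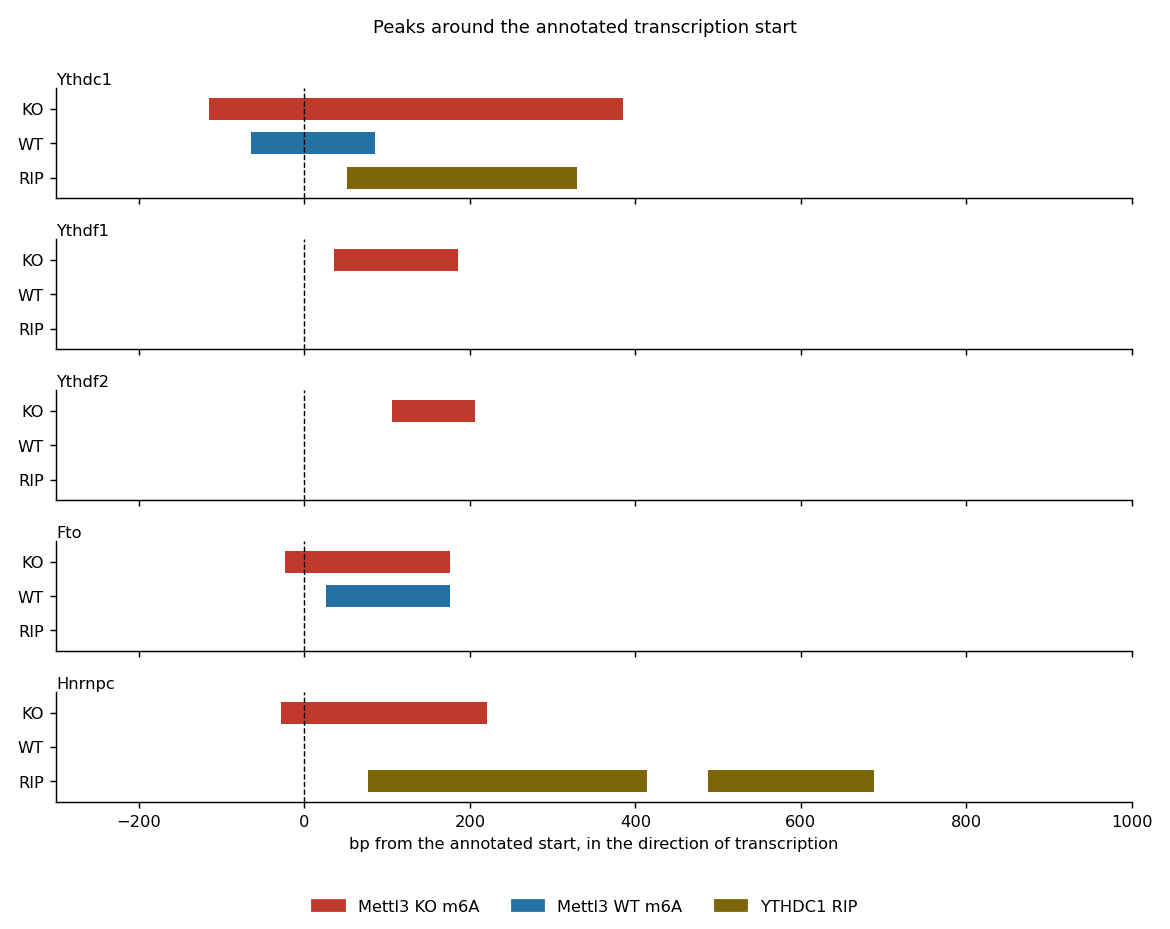
Peaks around the annotated transcription start of the 5 genes with a KO m6A peak near it; the x axis is the distance in bp from the start (dashed line) in the direction of transcription, and bars are peaks drawn to scale. KO peaks (red) are present in all 5 panels, WT peaks (blue) in those of Ythdc1 and Fto, and RIP peaks (brown) in those of Ythdc1 and Hnrnpc.

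The Ythdf genes shared a pattern that the gene names did not fix: each carried a WT m6A peak over 1000 bp wide in the body of the gene. No KO peak of the 10 genes was wider than 500 bp, and no other WT peak of theirs exceeded 850 bp. In Ythdf1 (chromosome 2, 180904377 to 180920936, minus strand) the single WT peak measured 1500 bp (180910801 to 180912300). In Ythdf2 (chromosome 4, 132184916 to 132212256, minus strand) the wide WT peak measured 1650 bp (132204151 to 132205800). In Ythdf3 (chromosome 3, 16183148 to 16217037) it measured 1350 bp (16203851 to 16205200). Peaks at least as wide made up 2.43%, 1.48% and 3.82% of the whole WT list. These are shares of peaks, and the share of genes with such a peak was not counted. The width was not particular to the Ythdf genes. Among 12 genes of the m6A writers, Rbm15 (2400 bp), Rbm15b (2200 bp) and Cbll1 (1350 bp) also had a WT peak over 1000 bp, and the others did not. Within the wide peaks the KO list had no peak in Ythdf1 or Ythdf2, and a 150 bp peak near the centre of the one in Ythdf3 (16204501 to 16204650).

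The only KO peak of Ythdf1 was instead 150 bp wide at the 5' end (180920751 to 180920900), 8450 bp from the WT peak. The only KO peak of Ythdf2 was 100 bp wide, also at the 5' end (132212051 to 132212150), 1150 bp from the nearer WT peak, a 200 bp peak at 132210701 to 132210900. Ythdf3 had 2 more WT peaks, of 200 and 400 bp (16205301 to 16205500 and 16213851 to 16214250), and no further KO peak.

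YTHDC1 RIP peaks fell inside the wide WT m6A region in Ythdf1 and Ythdf2 and not in Ythdf3. The RIP peak of Ythdf1 at 180910857 to 180911095 lay wholly within the wide peak, toward its downstream edge. The only RIP peak of Ythdf2 (132204134 to 132204681) shared 531 of its 548 bp with the wide peak, and extended past its downstream edge. The other RIP peak of Ythdf1 was 113 bp wide (180918608 to 180918720) and touched no m6A peak. Ythdf3 had a single RIP peak of 201 bp at the low-coordinate end of its span (16183278 to 16183478), 20372 bp from the wide peak. Ythdc2, the remaining YTH gene (chromosome 18, 44827730 to 44889720), had no peak to place.

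**Figure D3:**
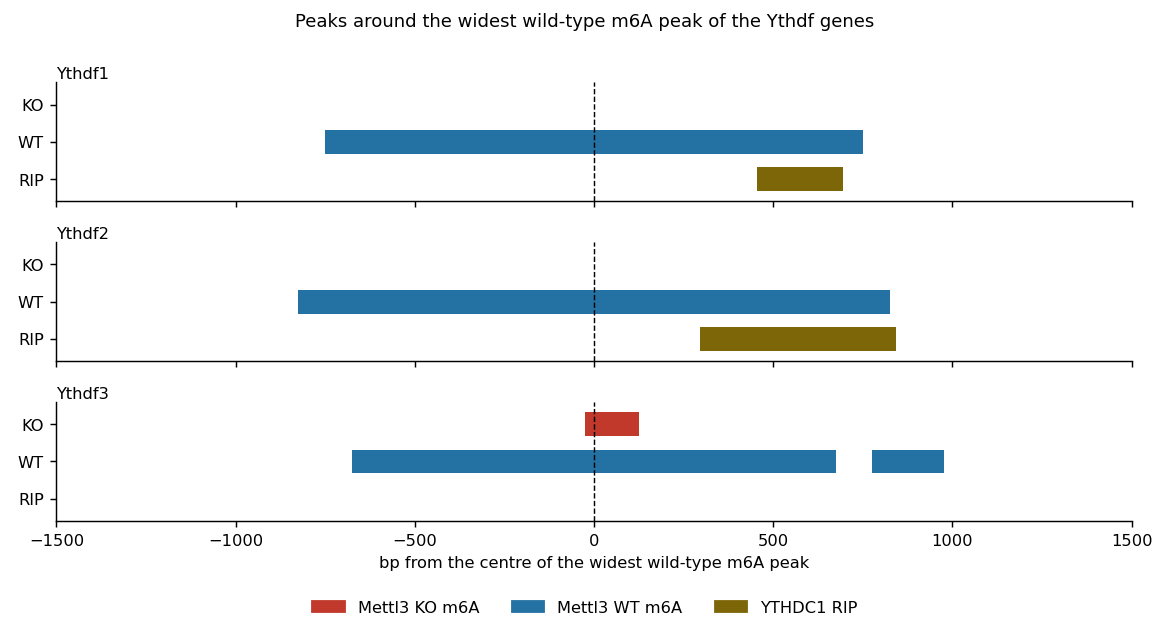
Peaks around the widest WT m6A peak of Ythdf1, Ythdf2 and Ythdf3; the x axis is the distance in bp from the centre of that peak (dashed line), in the direction of transcription for Ythdf1 and Ythdf2 and toward higher coordinates for Ythdf3. Blue bars are the WT peaks of 1500, 1650 and 1350 bp and a neighbouring 200 bp WT peak in Ythdf3, brown bars the RIP peaks at the downstream side in Ythdf1 and Ythdf2, and the red bar the 150 bp KO peak in Ythdf3.

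The erasers differed from each other. In Fto (chromosome 8, 91313367 to 91668433, plus strand, 355067 bp) each of the 3 KO peaks overlapped 1 of the 3 WT peaks. The pair at the start was 200 bp wide in KO cells (91313501 to 91313700) and 150 bp in WT cells (91313551 to 91313700). The next pair had the same edges in both lists (91401751 to 91401950). The last pair began at the same position and was 200 bp in KO cells (91409151 to 91409350) and 650 bp in WT cells (91409151 to 91409800). All 6 lay in the first 27.1% of the span, and Fto was the only one of the 10 genes in which every peak of either m6A list was shared. The 5 RIP peaks of Fto followed from 29.9% to 68.1% of the span. They included the widest RIP peak of the 10 genes, of 5409 bp (91416998 to 91422406), a width reached by 8.37% of the RIP list. None overlapped an m6A peak, and the closest approach was 7197 bp, to the last WT peak. The long non-coding RNA gene 4831440D22Rik lies inside the span (91450612 to 91467763) and none of these peaks overlapped it.

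In Alkbh5 (chromosome 11, 60537683 to 60558512, plus strand, 20830 bp) no peak was shared between the genotypes. Its 1 KO peak, of 150 bp (60557851 to 60558000), lay 97.2% along the span. The 3 WT peaks, of 100, 150 and 250 bp, lay at 3.44%, 77.0% and 80.4%, and the nearest to the KO peak was 3300 bp away. Alkbh5 held 5 RIP peaks, 2 near the 5' end, 1 at 52.0% and 2 at the 3' end. None overlapped an m6A peak, but the first WT peak (60538351 to 60538450) sat between the first pair of RIP peaks, 176 bp after the one and 14 bp before the other. The KO peak likewise sat between the last pair of RIP peaks (60556977 to 60557176 and 60558306 to 60558542), 674 and 305 bp from them.

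Of the proposed readers outside the YTH family, Igf2bp1 had peaks in both genotypes. Its span (chromosome 11, 95957163 to 96005944) held 3 KO peaks and 3 WT peaks. A 250 bp KO peak (95966101 to 95966350) contained a 150 bp WT peak with the same lower edge. A further KO peak of 400 bp (96005801 to 96006200) crossed the high-coordinate end of the span. Its midpoint lay outside, so it was not counted, yet it covered the whole 200 bp WT peak there (96005801 to 96006000). The remaining KO peaks, of 300 and 200 bp, lay mid-span, at least 14750 bp from any WT peak. The remaining WT peak, of 150 bp (95963501 to 95963650), was 2450 bp from the nearest KO peak. Igf2bp1 had 2 RIP peaks in its span, of 32 and 200 bp, and neither overlapped an m6A peak. The first is the narrowest of all 68 peaks, and the second was 394 bp from the shared m6A site at the span end.

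Hnrnpa2b1 and Hnrnpc, which encode nuclear ribonucleoproteins, stood in the KO and RIP lists and not in the WT list. Hnrnpa2b1 (chromosome 6, 51460434 to 51470048, minus strand, 9615 bp) had the most KO peaks per length of the 10 genes, 3.12 per 10 kb of span. These 3 KO peaks, of 150, 300 and 200 bp, lay in mid-span between 51464151 and 51465300. One of its 4 RIP peaks (51464115 to 51464329) covered the whole 150 bp KO peak and ended 21 bp short of the 300 bp one. Hnrnpc (chromosome 14, 52073377 to 52104039, minus strand) had 1 KO peak of 250 bp across its start (52103801 to 52104050). It had 6 RIP peaks, more than any other of the 10 genes, of which the one nearest the start (52103608 to 52103944) overlapped the KO peak by 144 bp. The remaining 5 were split between the first 34.7% of the span (3 peaks of 130 to 200 bp) and its 3' end (2 peaks of 385 and 200 bp at 94.1% and 92.3%).

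Peak widths in the 10 genes had a median of 200 bp in the KO list and 200 bp in the WT list. Over all peaks in protein-coding genes the medians were 250 bp in the KO list and 400 bp in the WT list. Of the 19 WT peaks, 14 were at most 400 bp wide, and the other 5 were the wide peaks of the Ythdf genes and the peaks of 850 bp in Ythdc1 and 650 bp in Fto. Of the 18 KO peaks, 4 were wider than 250 bp. RIP widths had a median of 207 bp in these genes and 200 bp over protein-coding genes. The m6A peaks start and end on a 50 bp grid and the RIP peaks do not, so small differences in width between these assays have no meaning.

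**Figure D4:**
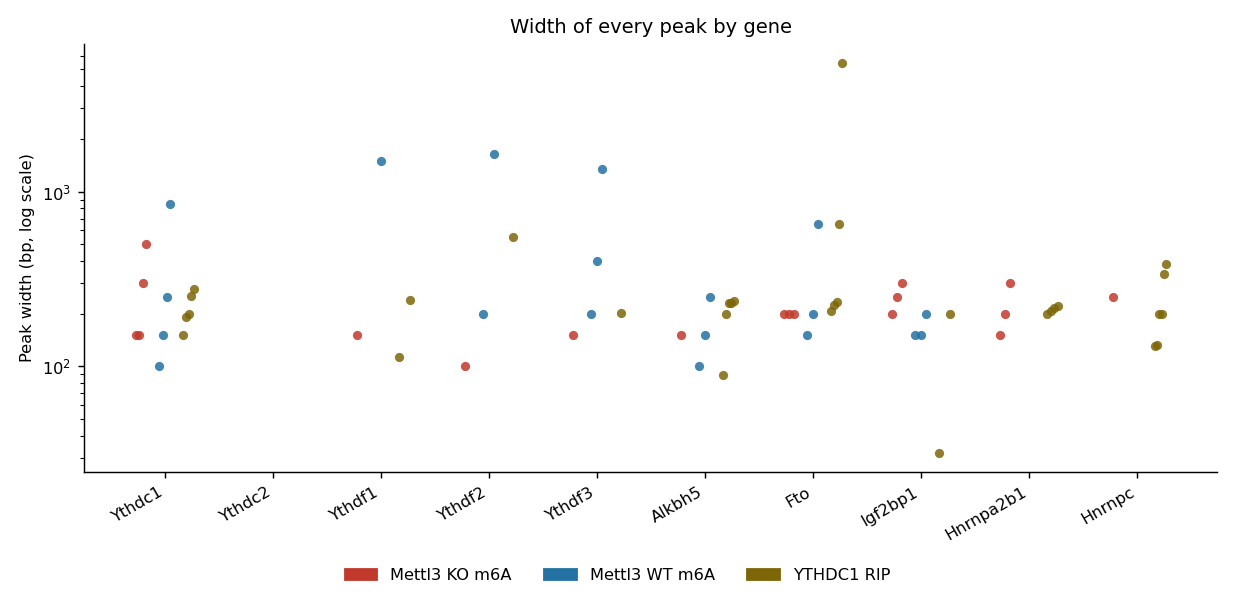
Width of every peak counted in the 10 genes; the y axis is the width in bp on a log scale, and each point is 1 peak, coloured by list. The WT points of 1500, 1650 and 1350 bp in the Ythdf genes stand above all other m6A points, and the highest point is the 5409 bp RIP peak of Fto.

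Sharing between genotypes was counted at an overlap of at least 1 bp. In the 10 genes 6 of 18 KO peaks overlapped a WT peak (33.3%, exact 95% binomial interval 13.3 to 59.0%), against 21.3% of KO peaks in all protein-coding genes. Of the WT peaks 7 of 19 overlapped a KO peak (36.8%, 16.3 to 61.6%), against 11.7%. That background includes peaks of genes with no peak in the other list. Among genes with peaks in both m6A lists the shares were 6 of 14 KO peaks (42.9%, 17.7 to 71.1%), against 32.6%, and 7 of 19 WT peaks (36.8%), against 27.4%, and both intervals include these values. With Fto left out of the 10 genes, 3 of 15 KO peaks (20%) and 4 of 16 WT peaks (25.0%, 7.27 to 52.4%) were shared. Held to genes with peaks in both lists, again without Fto, the KO share was 3 of 11 (27.3%, 6.02 to 61.0%) and the WT share was the same 25.0%. With both m6A lists cut to peaks wider than their median, none of 4 KO peaks and none of 5 WT peaks overlapped a kept peak. That cut also removed narrow partners. In the full lists the 500 bp KO peak of Ythdc1 overlapped a 150 bp WT peak. The wide WT peaks of Ythdf3 (1350 bp) and Fto (650 bp) overlapped KO peaks of 150 and 200 bp. Shared peaks were in 4 genes (Ythdc1, Ythdf3, Fto and Igf2bp1), and peaks of 1 gene are not independent: 3 of the shared KO peaks and 3 of the shared WT peaks were in Fto. Ythdf1, Ythdf2 and Alkbh5 had peaks in both lists that did not meet. The remaining 12 KO peaks and 12 WT peaks had no partner.

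Overlap with YTHDC1 was found for 3 of 18 KO peaks (16.7%, 3.58 to 41.4%), against 21.6% in all protein-coding genes, and for 3 of 19 WT peaks (15.8%, 3.38 to 39.6%), against 13.1%. Both shares were near their background. The KO peaks concerned were in Ythdc1, Hnrnpa2b1 and Hnrnpc, and the WT peaks in Ythdc1, Ythdf1 and Ythdf2. Ythdc1 was thus the only gene of the 10 where all 3 lists met, at its 5' end. Seen from the RIP list, 5 of 31 peaks, in 5 genes, overlapped an m6A peak of either genotype and 26 did not. By list, 3 of 31 RIP peaks (9.68%, 2.04 to 25.8%) overlapped a KO peak, against 6.44% over protein-coding genes. As many (9.68%, 2.04 to 25.8%) overlapped a WT peak, against 7.32%, and both intervals include the background value. The intervals cover the counting of peaks only. By their labels, the RIP list is from total RNA of Halo-Ythdc1 knockin cells and the m6A lists are from polyA RNA of Mettl3 KO and WT cells. These overlaps are thus of positions, and YTHDC1 binding in Mettl3 KO cells was not measured.

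**Figure D5:**
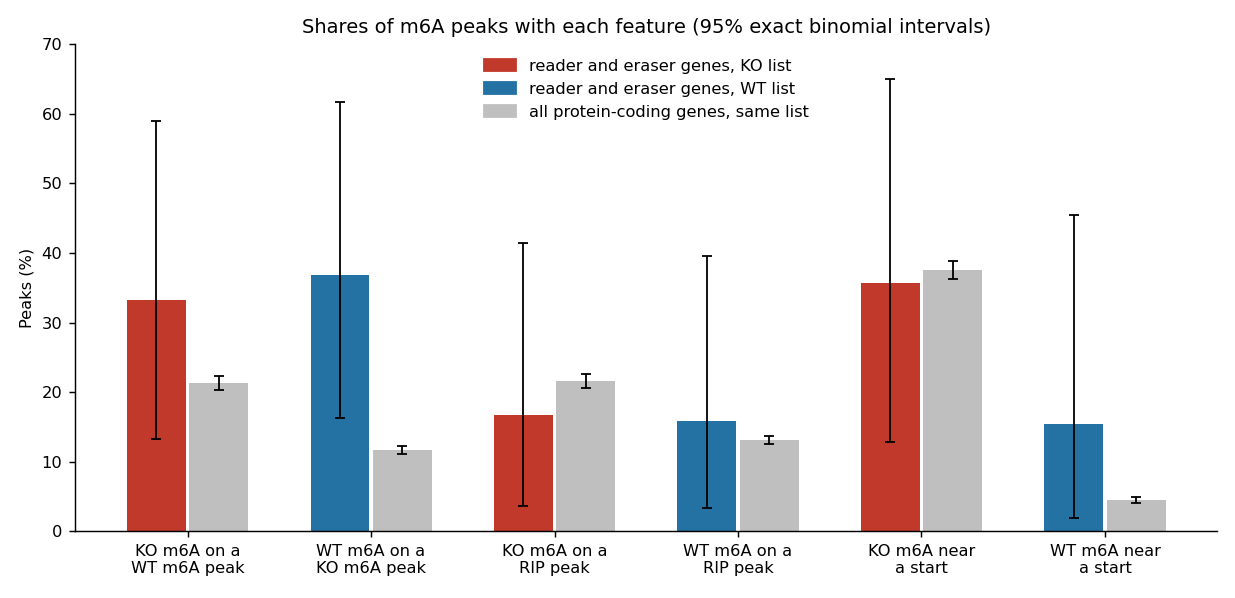
Share of m6A peaks that overlap the other genotype's list, overlap a YTHDC1 RIP peak, or have their midpoint within 200 bp of an annotated start; the y axis is the percentage of peaks, coloured bars are the reader and eraser genes (18 KO and 19 WT peaks, or 14 and 13 for the starts), grey bars all protein-coding genes in the same list, and error bars exact 95% binomial intervals. WT peaks on a KO peak were 36.8% against a grey bar of 11.7%, which also counts genes with no KO peak (27.4% in genes with both). Without Fto they were 25.0%. With both lists cut to peaks wider than their median, none of 5 WT peaks overlapped a kept KO peak, but narrow partners were removed. The intervals of the other 5 coloured bars include the value of their grey bar.

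The rest of the m6A pathway was set beside these genes. Of 12 writer genes, 6 had a KO peak, 10 a WT peak and 10 a RIP peak, and 5 had a WT peak and no KO peak. The widest WT peaks were in Rbm15 (2400 bp) and in Rbm15b (2200 bp), whose proteins recruit the writer complex to RNA and which had no KO peak, and in Cbll1 (1350 bp), a further subunit with 2 KO peaks and 1 WT peak. Of 7 other proposed readers, 4 had a KO peak, 3 a WT peak and 6 a RIP peak, with the widest WT peaks in Prrc2a (950 bp), Eif3a (450 bp) and Igf2bp2 (250 bp). Of 6 genes for partners of YTHDC1 in splicing, export and silencing, 3 had a KO peak, 2 a WT peak and 6 a RIP peak. The WT peaks were in Setdb1 (600 bp), a histone methyltransferase gene with no KO peak, and in Safb (300 bp), which had 8 KO peaks and 1 WT peak. A WT peak without a KO peak, seen in none of the 10 readers and erasers, was thus found in 5 writers, and the difference was not tested.

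No other protein-coding gene had the same 3 peak numbers as Ythdc1 (4 KO, 4 WT and 5 RIP). The nearest, at a summed difference of 1 peak over the 3 lists and then by covered length, was Etv5, a transcription factor gene, with 3 KO, 4 WT and 5 RIP peaks and 404 bp of summed difference in covered length. It was followed by Enah, which encodes an actin regulator (4, 4 and 6 peaks in the same order), Anp32b (4, 3 and 5) and Swap70 (4, 3 and 5). This likeness rests on 3 lists only.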

How the data were processed

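The authors deposited 3 peak lists (KO m6A, WT m6A and YTHDC1 RIP), each with chromosome, start and end, so the values are positions in bp. The submitters' processing notes name mm10 as the build. They also name MACS2 2.1.2, a peak caller, HISAT2 2.2.0 and STAR 2.7, which are aligners, and Trim Galore 0.6.4, SAMtools 1.9 and bcl2fastq. The sources used here do not give the step each tool served, the peak threshold, the m6A antibody or any pooling of samples. Read depth is unknown.

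Samples were grouped by title. Gene spans came from the RefSeq gene table (assembly GRCm38.p6), which shares its chromosome coordinates with mm10. A midpoint in several protein-coding spans went to the shortest. Strand and annotated starts came from the RefSeq promoter table, which held 7 of the 10 genes; Ythdc2, Ythdf3 and Igf2bp1 were placed by coordinate. Without exons or a genome, untranslated regions, coding exons and introns were not told apart.

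Overlap meant at least 1 bp. The 95% intervals of shares are exact (Clopper-Pearson) and reflect counting error alone. No test between genotypes was possible, since the lists hold no value per replicate; counts are set beside the same share over all 21887 protein-coding genes or their peaks. All 10 genes are named. The other genes named are up to 3 of each pathway list by widest WT peak, up to 5 genes most like Ythdc1 by peak numbers (1 is not reported here), and Mettl3 and 2 fibroblast markers, chosen after their values were seen. The members, lists and settings were chosen with earlier results of these data known. Overlap counting was tested on simulated peaks. Python 3.11.15, pandas 2.3.3, NumPy 2.4.6, SciPy 1.17.1 and matplotlib 3.10.9 were used. Alternatives were the overlap needed, assignment by any overlap with the span, wide peaks only, the distance to the span end or start, and leaving out Fto.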

Additional observations from a re-analysis of the deposited data

How the results depend on the processing

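Counting any overlap with a gene span in place of the midpoint brought the KO peaks to 19, with the one at the span end of Igf2bp1, and changed no gene count. Keeping only peaks wider than the median of their list turned the order of the genotypes, with KO peaks in 3 genes and WT peaks in 5, and lowered the peaks to 4 KO, 5 WT and 17 RIP, and the RIP peaks of Ythdc1 to 2. With it 0% of KO and 0% of WT peaks overlapped a peak kept in the other genotype's list, since narrow partners had been removed. None lay within 200 bp of a span end, and 40% of WT peaks were on a RIP peak. These shares rest on 4 KO and 5 WT peaks. Requiring 50% of the narrower peak, or allowing a gap of up to 200 bp, left the shares between genotypes at 33.3% and 36.8%; the shares on RIP peaks ranged from 16.7 to 22.2% for KO and from 10.5 to 21.1% for WT peaks. Within 100 bp of a span end lay 0% of KO peaks, against 16.7% within 200 bp. The share near an annotated start was itself a measure chosen after seeing the data, as were its alternatives: it was 35.7% of KO and 15.4% of WT peaks within 200 bp, 14.3% and 7.69% within 100 bp, and 21.4% and 0% with the 5' end of the span in place of the start. Leaving out Fto, also chosen after seeing the data, gave shares between genotypes of 20% of KO and 25% of WT peaks. In all, 38 of 50 alternative values stayed within the interval, or within 1.5 times the count, of the main value. No paired analysis was possible because the lists carry no value per sample, and for the same reason no replicate could be left out. Depth is unknown, so a missing peak does not show that the RNA is unmethylated or unbound.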
